A study of Mus musculus with 9 samples.

Results

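The RNAs described here come from the imprinted Dlk1-Dio3 locus of mouse chromosome 12 and were measured in liver under alcohol feeding. The members are the 5 genes Meg3, Rian, Mirg, Dlk1 and Rtl1, taken by name as 6 of the 52151 gene entries (Rtl1 has 2 entries) and 39 of the 26083 lncRNA-table transcripts. The transcripts were 14 of Meg3, 16 of Rian and 9 of Mirg, and no transcript of Dlk1 or Rtl1 stood in that table. The locus was picked because its RNAs were higher in alcohol-fed than in pair-fed liver, so that difference chose the members and is given here as a description, with no test.

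Liver RNA was measured in 3 groups of 3 libraries each. Pair-fed mice (PF) received an isocaloric control liquid diet and alcohol-fed mice (AF) the Lieber-DeCarli alcohol diet, both for 5 weeks. The third group (AF with MNA) was alcohol-fed and also received MNA, which the labels do not spell out, by daily intraperitoneal injection of 50 mg/kg. The mice were 8 weeks old per the labels and male C57BL/6J per the methods, while the strain label reads C57BL/6 in PF and AF and C57BL/7, C57BL/8 and C57BL/9 in the MNA libraries. No group carried an engineered allele. The labels number the libraries and do not say that each came from a separate mouse, so p-values measure the spread between these libraries. FPKM, the unit throughout, is the number of fragments scaled to transcript length and to library size. For lncRNAs, 1 FPKM was worth a read depth of 5.84 to 8.3 per base. AF replicate 3 and MNA replicate 1 stood apart, with 9433 and 8934 summed FPKM in intron transcripts against 2477 to 4937 in the other libraries.

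The Dlk1-Dio3 locus is an imprinted domain, in which the allele from each parent is read differently. The maternal allele is known to give the non-coding RNAs Meg3, Rian and Mirg, which host small nucleolar RNAs and a large cluster of miRNAs, and the paternal allele the protein-coding genes Dlk1, Rtl1 and Dio3. Meg3 is a nuclear RNA studied as a partner of the PRC2 chromatin complex and of the p53 pathway, and the domain is known for strong expression in embryo, placenta and brain. FPKM values do not separate the alleles.

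By the GENCODE annotation of GRCm38 the domain from the start of Dlk1 to the end of Dio3 spans 828 kb (chr12:109452823-110281097) and holds 58 RefSeq miRNA hairpins and 23 snoRNA genes. Meg3 (chr12:109541001-109571726, plus strand) is a lincRNA gene with 1 hairpin. Rian (chr12:109603940-109661716, plus strand) holds 13 snoRNA genes and 3 hairpins, and Mirg (chr12:109729764-109749460, plus strand) holds 14 hairpins. Rtl1 (chr12:109589193-109600330) is read from the minus strand and has 7 hairpins inside it, 6 of them on the opposite strand.

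The RefSeq promoter windows of the non-coding members, 300 bases around each start (GRCm38.p6, plus strand), are shown because these RNAs were high in the same libraries. The palindrome TGACGTCA, the cAMP response element consensus, is in capitals where it occurs.
Meg3, chr12:109540746-109541045: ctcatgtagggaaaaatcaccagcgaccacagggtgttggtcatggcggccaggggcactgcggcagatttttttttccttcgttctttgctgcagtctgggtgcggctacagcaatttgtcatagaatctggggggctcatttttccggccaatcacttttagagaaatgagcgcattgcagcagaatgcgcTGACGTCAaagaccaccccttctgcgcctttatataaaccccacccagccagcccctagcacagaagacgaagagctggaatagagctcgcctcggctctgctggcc
Rian, chr12:109603695-109603994: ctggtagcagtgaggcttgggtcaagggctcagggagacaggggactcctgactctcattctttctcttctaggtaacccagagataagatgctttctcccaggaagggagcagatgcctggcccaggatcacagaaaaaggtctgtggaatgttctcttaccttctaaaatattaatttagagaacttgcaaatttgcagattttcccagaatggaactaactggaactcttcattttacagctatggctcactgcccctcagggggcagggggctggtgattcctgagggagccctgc
Mirg, chr12:109734731-109735030: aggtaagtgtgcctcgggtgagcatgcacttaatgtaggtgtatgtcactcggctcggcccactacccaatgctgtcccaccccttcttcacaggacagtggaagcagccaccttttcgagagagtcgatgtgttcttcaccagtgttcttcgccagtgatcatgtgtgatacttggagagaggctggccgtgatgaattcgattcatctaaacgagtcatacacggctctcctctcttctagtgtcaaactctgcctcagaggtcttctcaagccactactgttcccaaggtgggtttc
The motif was found once in the Meg3 window, at position -57 from the start, and not in these windows of Rian and Mirg or in the second RefSeq window of Meg3. It occurred in 588 of 32851 RefSeq windows of this length (1.79%). The Meg3 window held 13 CpG dinucleotides, the Mirg window 10 and the Rian window 0, against a median of 7 over all windows. The Mirg window lies inside the GENCODE gene, downstream of its annotated start. A RefSeq window was found for 4 of the 5 members and not for Rtl1.

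Meg3 was listed at 0.18, 0.10 and 0.11 FPKM in the 3 PF libraries, at 1.29, 3.85 and 2.21 in AF, and at 2.02, 1.99 and 3.30 in AF with MNA. Every AF and every MNA library lay above the highest PF library, and the AF and MNA libraries overlapped each other. The means were 0.130 ± 0.0436 in PF, 2.45 ± 1.297 in AF and 2.44 ± 0.748 in AF with MNA (SD, n = 3). The ratio of the AF to the PF mean was 18.8 (log2 4.24), and that of the MNA to the PF mean 18.7 (log2 4.23). AF replicate 2 was the highest library, and without it the AF to PF ratio was 3.75 on the log2 scale.

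Rian, the snoRNA host downstream of Rtl1, was listed at 0.34, 0.17 and 0.15 FPKM in PF, at 1.13, 2.70 and 1.83 in AF, and at 1.51, 1.51 and 2.60 in AF with MNA. PF and AF libraries again did not overlap, nor did PF and MNA libraries. The means were 0.220 ± 0.104 in PF, 1.89 ± 0.787 in AF and 1.87 ± 0.629 in AF with MNA (SD, n = 3), which is an AF to PF ratio of 8.58 (log2 3.10) and an MNA to PF ratio of 8.52 (log2 3.09). Without PF replicate 1, the highest PF library, the AF to PF ratio was 3.56 on the log2 scale.

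Mirg, the miRNA host at the far end of the cluster, was the lowest of the non-coding members. It was listed at 0.06, 0.07 and 0.03 FPKM in PF, at 0.34, 0.23 and 0.40 in AF, and at 0.28, 0.31 and 0.30 in AF with MNA. No AF or MNA library reached down to the PF range. The AF mean of 0.323 ± 0.0862 was 6.06 times the PF mean of 0.0533 ± 0.0208 (log2 2.60), and the MNA mean was 0.297 ± 0.0153 (SD, n = 3). With 2 decimals per gene value in the table, the PF values of Mirg are coarse.

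**Figure D1:**
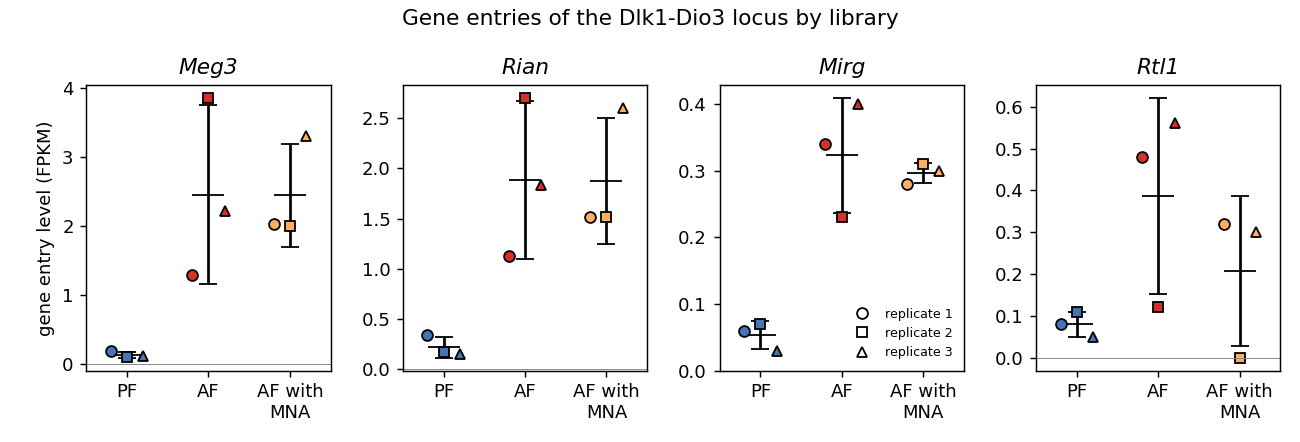
FPKM of the gene entries of Meg3, Rian, Mirg and Rtl1 (y axis, 1 scale per panel) in PF, AF and AF with MNA, with 1 point per library, a horizontal mark at the mean and bars of 1 SD. For Meg3, Rian and Mirg the 6 alcohol-fed libraries lie above the PF libraries, while Rtl1 is at 0 in MNA replicate 2 and at 0.12 in AF replicate 2.

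The libraries fell in nearly the same order for Meg3 and Rian. From the top both ran AF replicate 2, MNA replicate 3, AF replicate 3, MNA replicates 1 and 2 (tied for Rian), AF replicate 1 and PF replicate 1. Mirg had another order within the alcohol-fed libraries, with AF replicate 3 highest and AF replicate 2 lowest of the 6. Within each of the groups AF and MNA, neighbouring libraries are single values with no replicate of their own, so that the order describes these livers only. AF replicate 3 and MNA replicate 1, the libraries with much intron signal, were neither the highest nor the lowest of the 6 for Meg3 and Rian. For Mirg and the known Rtl1 entry, however, AF replicate 3 was the highest library.

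Of the 6 member entries, Meg3 and Rian reached the mean of 0.5 FPKM that the test across genes required, and in AF against PF they reached it through the AF libraries alone. Both were past the threshold of the methods in AF against PF, which asks for an unadjusted p under 0.05 and a log2 ratio of means beyond 1, where 4.3% of the 12268 tested gene entries were past it in either direction. Since the members were chosen on this contrast, nothing is read from that count. Every AF library lay above every PF library in 8.18% of tested gene entries, every MNA library did in 9.23%, and all 6 alcohol-fed libraries did in 3.64%. The median log2 ratio of AF to PF over all tested entries was -0.03, and 39 of 12234 entries with both means above 0 had a log2 ratio over 3.

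**Figure D2:**
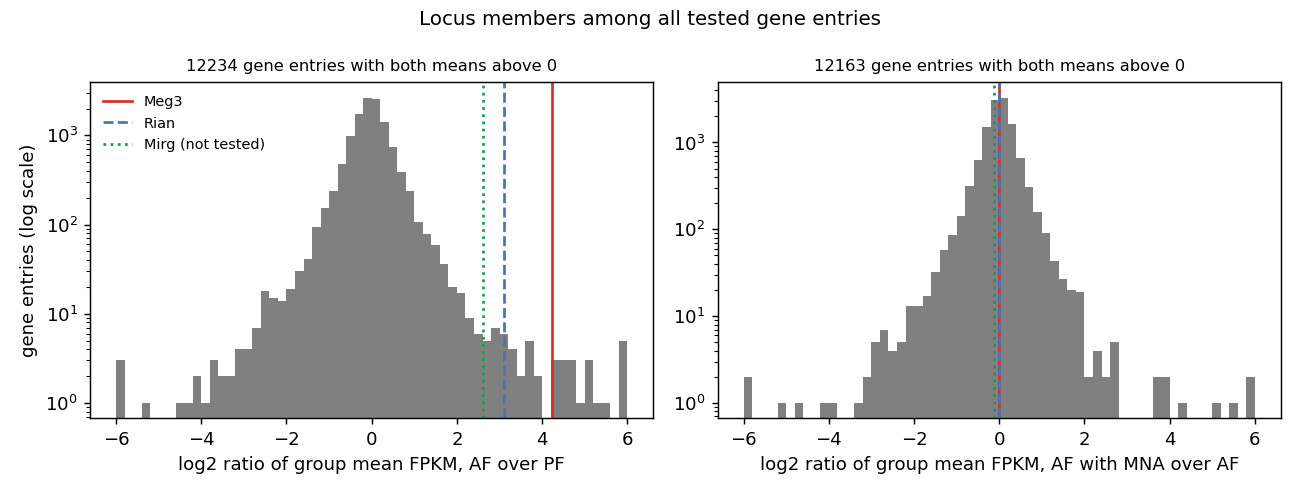
Distribution of the log2 ratio of group mean FPKM over gene entries (y axis, number of entries on a log scale; ratios beyond 6 in size are in the outermost bins) for AF over PF, 12234 entries, and AF with MNA over AF, 12163 entries. Vertical lines mark Meg3, Rian and Mirg, at 4.24, 3.10 and 2.60 for AF over PF and at -0.01, -0.01 and -0.12 for AF with MNA over AF.

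The comparison of AF with MNA against AF asked whether the levels of the locus differed between alcohol-fed livers with and without MNA. The AF libraries are shared with the contrast that chose the members, and the MNA values were known by then. Neither tested entry passed the threshold, where 1.98% of the 12214 tested gene entries did. For Meg3 the difference on the log2(FPKM + 1) scale was 0.04 (SE 0.298, 95% interval -0.68 to 0.76, limma adjusted p = 1.00). For Rian it was 0.01 (SE 0.247, 95% interval -0.59 to 0.60, limma adjusted p = 1.00). These intervals still allow a difference of either sign. The log2 ratio of means turned from -0.01 to 0.48 for Meg3 and from -0.01 to 0.34 for Rian when AF replicate 2 was left out, and neither passed the threshold under any of the alternatives. Beside the 0 member calls, both entries also had an unadjusted p above 0.05.

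At the transcript level the 14 Meg3 transcripts of the lncRNA table were 11 known and 3 assembled from these libraries, and those of Rian and Mirg were all known. Levels of transcripts come from the lncRNA table and were not added to or compared with the gene entries, since the same library can give a gene entry below the summed FPKM of its transcripts. The leading Meg3 transcript across libraries, ENSMUST00000143836 (1896 bases), was listed at 0.27, 0.41 and 0.18 FPKM in PF, at 2.74, 2.16 and 3.51 in AF, and at 2.30, 4.28 and 4.41 in AF with MNA. Its AF and MNA libraries all lay above the PF libraries, with a log2 ratio of the AF to the PF mean of 3.29.

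Other Meg3 transcripts were unevenly spread over the alcohol-fed libraries. The assembled MSTRG.10718.5 stood at 7.57 FPKM in AF replicate 2 and near 0 in the other 8 libraries. ENSMUST00000129245, a short form of the 5′ end, stood at 7.45 in the same library and between 0.01 and 3.49 in the other alcohol-fed libraries. MSTRG.10718.2, which spans the gene, was listed at 0.38, 0.10 and 0.17 FPKM in PF, at 1.82, 0.22 and 1.70 in AF, and at 4.28, 1.73 and 2.52 in AF with MNA, so that AF replicate 2 lay within the PF range. The leading transcript of a library took between 30.9% and 55.0% of the summed Meg3 FPKM, and it was ENSMUST00000143836 in 4 of the 6 alcohol-fed libraries. ENSMUST00000126289 went the other way, with 0.35, 0.69 and 0 FPKM in PF against 0, 0 and 0.05 in AF, with 0, 0.12 and 0 in the MNA group, and its groups overlapped at 0. Such splits between overlapping transcripts are estimates of the quantification and are less certain than the level of the gene.

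The leading Rian transcript was ENSMUST00000182981 (1219 bases, chr12:109650681-109661025, in the 3′ part of the gene). It was listed at 0.82, 0.18 and 0.23 FPKM in PF, at 2.18, 9.26 and 5.33 in AF, and at 4.08, 1.87 and 7.13 in AF with MNA. PF lay below both other groups, and the AF libraries spanned the MNA range except for its lowest value. It led the Rian transcripts in 8 of the 9 libraries, with up to 74.2% of their summed FPKM, and in PF replicate 3 ENSMUST00000181253 led. ENSMUST00000182119, at the 5′ end of Rian, was listed at 0 in every PF library, at 0.31, 0.09 and 1.14 in AF, and at 0.13, 0.61 and 0.02 in AF with MNA. ENSMUST00000182119 and ENSMUST00000182981 were thus both above PF in all 6 alcohol-fed libraries, and they peaked in different libraries. The level of ENSMUST00000182119 in MNA replicate 3 rests on 43 aligned bases. Other transcripts near these ends overlapped PF. ENSMUST00000182689 was at 0.16 in PF replicate 1 and 0.11 in AF replicate 2. ENSMUST00000181253 was at 0.47 in PF replicate 3 and 0 in MNA replicate 1.

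Mirg was led in 5 of the 9 libraries by ENSMUST00000182300, a 3′ transcript of 694 bases with 0.10, 0.11 and 0.12 FPKM in PF, 1.03, 0.10 and 1.94 in AF, with 0.57, 0 and 0.82 in the MNA group. AF replicate 2 and MNA replicate 2 stood at or below the PF range. In those libraries ENSMUST00000183144, which spans the gene, led instead, with 0.23 and 0.46 FPKM against 0.02 to 0.03 in PF. ENSMUST00000183144 was listed at 0 in MNA replicate 1, so that its MNA libraries overlapped PF. The 5′ transcript ENSMUST00000182074 was listed at 0.26, 0.26 and 0 in PF, at 0 in all AF libraries and at 0.26, 0 and 0.22 in AF with MNA, where 2 libraries were thus near the PF level. It led the Mirg transcripts in PF replicates 1 and 2.

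**Figure D3:**
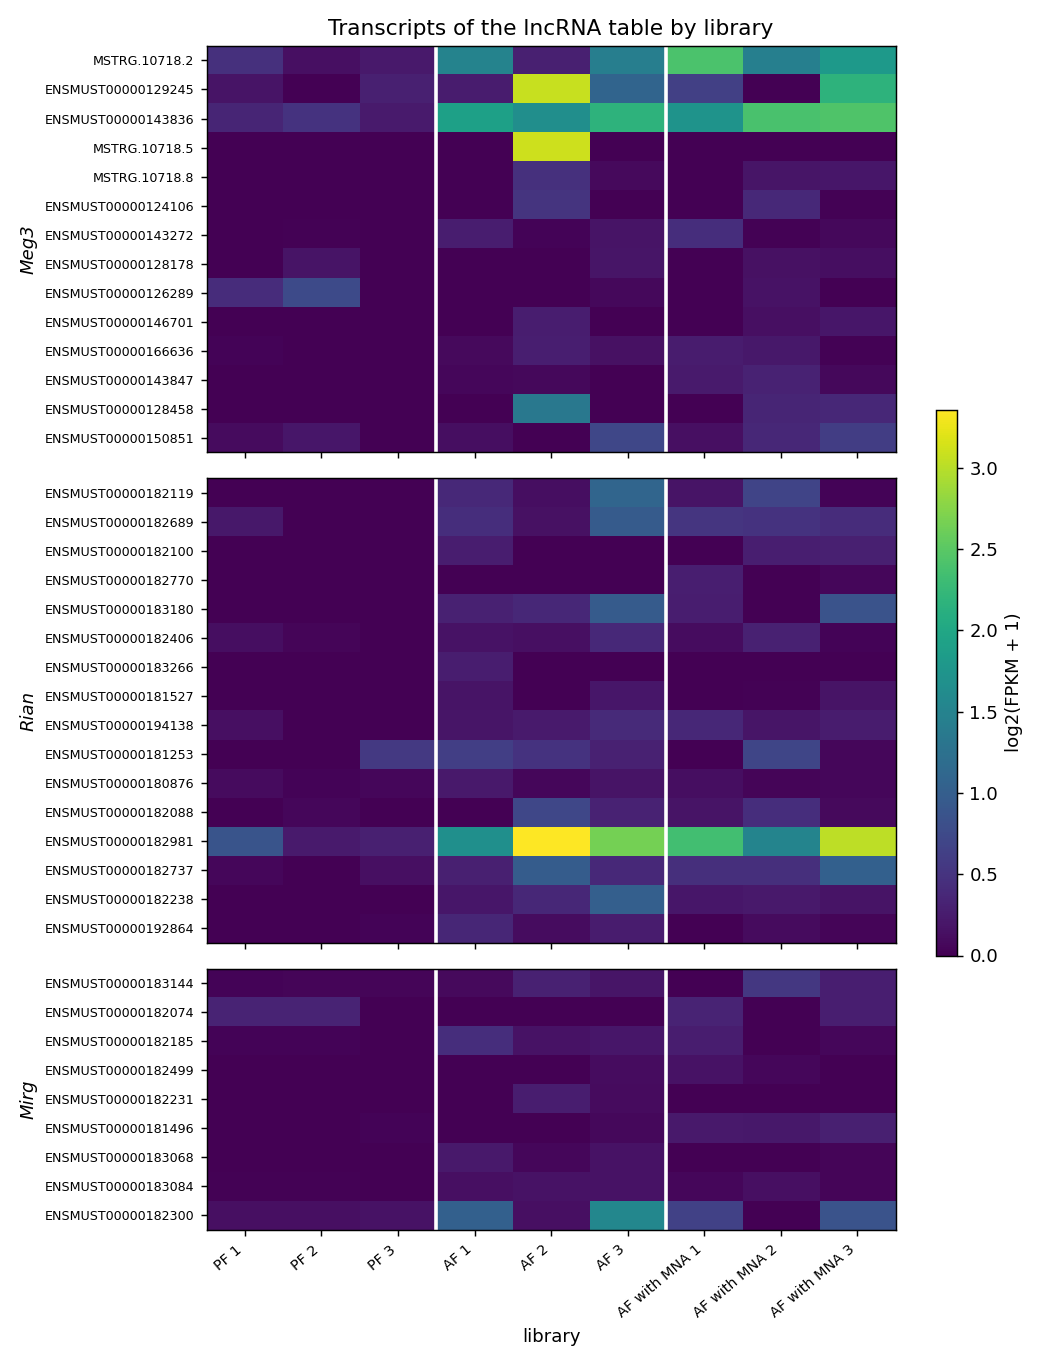
Level of the 39 lncRNA-table transcripts of Meg3, Rian and Mirg (rows, in order of start along the chromosome) in the 9 libraries (columns), as log2(FPKM + 1) in colour. ENSMUST00000143836 of Meg3 and ENSMUST00000182981 of Rian are bright across the alcohol-fed libraries, while MSTRG.10718.5 is bright in AF replicate 2 alone.

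Over the 39 transcripts, the mean was higher in AF than in PF for 36 and higher in AF with MNA than in PF for 34, and 11 were listed at 0 in every PF library. Every AF library lay above every PF library for 16 of the 39 (4 of Meg3, 8 of Rian and 4 of Mirg), every MNA library did for 12, and all 6 alcohol-fed libraries did for 8. Over all lncRNA transcripts tested in AF against PF these shares were 3.51%, 2.14% and 0.568%, and 9, 9 and 6 of the members just counted were among those tested. These counts follow the contrast that chose the members and cover transcripts of 3 genes that share exons, so nothing is read from them. The lncRNA mean filter of 0.1 FPKM was passed by 19 of the 39 in AF against PF, 2 of which were past the threshold, both upward, where 2.47% of the 18310 tested transcripts were. Across all tested transcripts the median log2 ratio was 0.19, and 57.0% of the 453 past the threshold were upregulated. With libraries scaled to 1 median the median was -0.11 and the upregulated share 43.3% of 503, so transcript ratios are read against that shift.

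In AF with MNA against AF, 26 of the 39 transcripts passed the mean filter and 0 were past the threshold or had an unadjusted p under 0.05 (limma), where 1.75% of the 19752 tested transcripts were past it. For ENSMUST00000143836 of Meg3 the difference in log2(FPKM + 1) was 0.27 (95% interval -0.35 to 0.90, limma adjusted p = 0.671). For ENSMUST00000182981 of Rian it was -0.27 (95% interval -1.28 to 0.74, limma adjusted p = 0.810). The Meg3 transcript MSTRG.10718.2 came nearest, with a difference of 0.81 (95% interval -0.05 to 1.68, limma adjusted p = 0.591). It was past the threshold in 4 of the 13 fits run, with limma adjusted p between 0.574 and 0.681 in the 4. These were the fits with all 9 libraries, without AF replicate 1, without MNA replicate 2 and with the replicate number as a block. The replicate numbers were not taken to pair the libraries. The Mirg transcript ENSMUST00000181496 passed it in the model without moderation and with a library-size covariate, with an adjusted p of 0.694.

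The amount of sequence behind these levels can be read from the coverage. Summed over the transcripts of the lncRNA table, Meg3 had 19.6, 13.5 and 9.50 kb of aligned sequence in PF, 101, 347 and 136 kb in AF, with 238, 172 and 182 kb in the MNA group. Rian had 14.4, 3.75 and 11.5 kb in PF, 48.2, 92.9 and 90.4 kb in AF, with 60.1, 51.2 and 66.8 kb in the MNA group. Mirg had 3.25, 3.74 and 1.60 kb in PF, against 10.6 to 22.3 kb in AF and 13.1 to 18.97 kb in AF with MNA. PF lay below the alcohol-fed libraries in these sums too, AF and MNA libraries overlapped each other, and the PF levels rest on little sequence.

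The protein-coding members gave no common picture. Dlk1, which encodes a transmembrane protein of the Notch ligand family, was listed at 0 in 8 libraries and at 0.01 FPKM in AF replicate 3. The known Rtl1 entry (MSTRG.10739), a retrotransposon-derived gene needed in placenta, was listed at 0.08, 0.11 and 0.05 FPKM in PF, at 0.48, 0.12 and 0.56 in AF, and at 0.32, 0 and 0.30 in AF with MNA. AF replicate 2, the highest library for Meg3, was thus 0.01 FPKM above the highest PF library for Rtl1, and the MNA libraries overlapped PF. The second Rtl1 entry (MSTRG.10746), which holds no known transcript, was listed at 0.19 in PF replicate 3, at 1.56 in AF replicate 1 and at 0 in the other 7 libraries. Neither Dlk1 nor either Rtl1 entry reached the mean level for a test. Dio3, the thyroid hormone-inactivating deiodinase at the end of the domain, is not a member. It was listed at 0, 0 and 0.05 FPKM in PF, at 0.09, 0.11 and 0.05 in AF, and at 0.17, 0.11 and 0.03 in AF with MNA. Both alcohol-fed groups overlapped PF at these low levels.

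Rtl1 values carry a further limit, because RNA is known to be read from both strands there. The libraries were strand-specific, but whether the quantification used strand is not given in the sources used here, so reads of Rtl1 and of its antisense RNA cannot be told apart. All 11 mature miRNAs that RefSeq places on the strand opposite Rtl1 had a fully complementary stretch in the Rtl1 transcript of 6358 bases. A pair of them is shown with the seed (bases 2 to 8) in capitals, beside the Rtl1 stretch that the same bases of the chromosome give on the other strand.
mmu-miR-127-3p, chr12:109592888-109592909: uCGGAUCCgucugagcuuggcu
Rtl1 transcript, positions 2642 to 2663: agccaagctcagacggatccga
mmu-miR-434-3p, chr12:109594565-109594586: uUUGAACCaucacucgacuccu
Rtl1 transcript, positions 965 to 986: aggagtcgagtgatggttcaaa
The miRNAs themselves were not analysed here.

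The same limit holds at the 3′ end of Meg3, where the lincRNA gene Gm26906 (chr12:109568628-109571723) lies on the opposite strand. Gm26906 was listed at 0.02, 0.24 and 0 FPKM in PF, at 0.66, 1.05 and 1.63 in AF, and at 0.71, 0.82 and 1.25 in AF with MNA. All 6 alcohol-fed libraries lay above PF, as for Meg3. Its highest library was AF replicate 3, which had much intron signal, while that of Meg3 was AF replicate 2.

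Between Dlk1 and Dio3 the gene table held 17 further entries. The 5 small RNA genes among them reached at most 0.35 FPKM, in libraries that were not made for small RNA. The lncRNA table held 12 further transcripts, 4 known and 8 assembled, and all 8 assembled ones reached 1 FPKM in some library. Several of these were high in a single library, some of them in AF replicate 3, which had much intron signal. MSTRG.10736.1 stood at 2.39 FPKM in AF replicate 3 and at 0 elsewhere, MSTRG.10682.1 at 1.86 and MSTRG.10737.1 at 1.58 in that same library, and MSTRG.10733.1 at 1.42 in AF replicate 2 and 0 elsewhere. The multi-exon MSTRG.10767.1, on the minus strand beyond Mirg, was between 0.48 and 7.19 FPKM in PF, between 0.63 and 5.96 in AF and between 0.80 and 4.73 in AF with MNA. The known RNAs between Rian and Mirg, Gm37899 and B830012L14Rik, were at most 0.32 FPKM in any library.

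**Figure D4:**
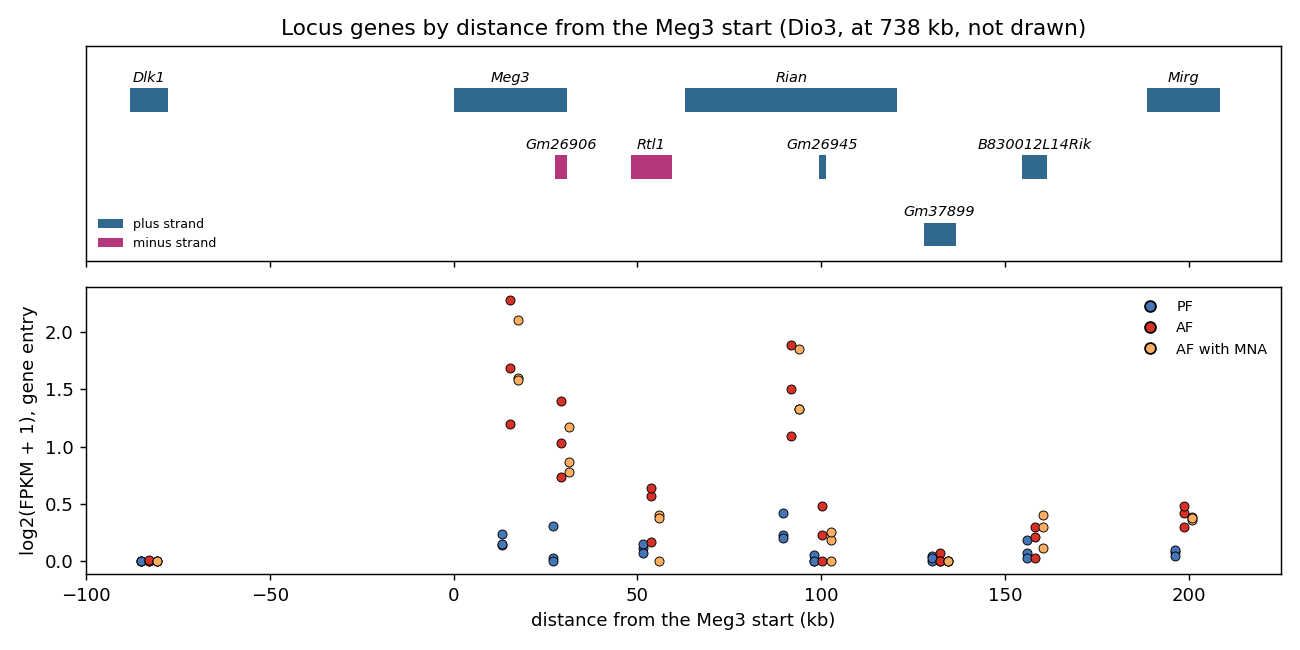
Genes of the domain by distance from the Meg3 start in kb (top, plus strand blue and minus strand pink), and the gene entry level of each library as log2(FPKM + 1) above the middle of its gene (bottom), in PF, AF and AF with MNA, with 1 point per library. Levels of the alcohol-fed libraries stand out at Meg3, Gm26906 and Rian, are low at Mirg and are at or near 0 at Dlk1.

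Few genes around the domain could be tested. Of 13 flanking genes 12 had an entry, and 9 were tested in AF against PF, with a median log2 ratio of -0.03 against -0.03 over all tested entries. Upward, 0 were past the threshold, where 1.95% of all tested entries were. Downward, 1 was past it, where 288 of all 12268 tested entries were. The 1 was Hsp90aa1, a stress-inducible chaperone, at 38.5, 31.8 and 27.6 FPKM in PF, 12.1, 16.8 and 15.1 in AF, with 12.2, 36.7 and 29.7 in the MNA group (log2 ratio AF to PF -1.16, limma adjusted p = 0.0999). Dync1h1 was the 1 flanking gene above PF in all 6 alcohol-fed libraries, as 3.64% of all tested entries were. It was at 20.7 to 22.3 FPKM in PF, 23.1 to 24.8 in AF and 24.7 to 27.4 in the MNA group (log2 ratio AF to PF 0.16, limma adjusted p = 0.655). In AF with MNA against AF 0 of 8 tested flanking genes were past the threshold, where 1.98% of all tested entries were. With so few genes and so low a share over all entries, nothing is read from either 0.

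Genes of other imprinted regions were compared in the same way. Of 42 such genes 40 had an entry and 17 were tested in AF against PF, of which 0 were past the threshold, against 4.3% of all tested entries, with a median log2 ratio of 0.10. Every AF library lay above every PF library for 8 of the 40 entries, and for 5 of the 17 tested against 8.18% of all tested entries, so a separation of AF from PF was not limited to the Dlk1-Dio3 locus. The 8 were Igf2, Igf2r, Peg3, Cdkn1c, Asb4, Cd81, Slc22a18 and Ddc. All AF libraries lay below PF for 2 entries, Mkrn3 and Kcnq1. H19, the lncRNA of the best-known imprinted region, was between 0 and 0.08 FPKM over all libraries. Igf2, the growth factor beside it, was at 0.05 to 0.08 in PF, 0.10 to 0.13 in AF and 0.03 to 0.11 in the MNA group. Igf2r, the receptor that clears IGF2, was at 9.97 to 10.2 FPKM in PF, 10.3 to 11 in AF and 11.1 to 11.4 in the MNA group. The zinc finger gene Peg3 was at 0.95 to 1.29, 1.43 to 1.83 and 0.78 to 1.34 FPKM in the same order, and the adaptor gene Grb10 was between 0.32 and 0.65 over all libraries. Asb4 was at 0 to 0.07 FPKM in PF, 0.09 to 0.21 in AF and 0 to 0.09 in the MNA group. All 6 alcohol-fed libraries lay above PF for 4 of the 17 tested, against 3.64% of all tested entries. They were Igf2r, Cd81, Slc22a18 and Ddc. Cd81 was at 45.8 to 51.9 FPKM in PF, 60.2 to 66.2 in AF and 60.7 to 65.4 in the MNA group. Slc22a18 was at 26.8 to 31.2, 37.3 to 43.8 and 43.2 to 46.1 in the same order, and Ddc at 3.04 to 4.05, 4.60 to 8.25 and 6.81 to 8.41. Cdkn1c, a cell-cycle inhibitor that was too low for the test, was at 0.03, 0.05 and 0.06 FPKM in PF, at 0.55, 0.12 and 0.27 in AF, with 0.67, 0.04 and 0.07 in the MNA group, so that AF lay above PF and the MNA libraries overlapped it. In AF with MNA against AF, 17 were tested and 2 were past the threshold, where 1.98% of all tested gene entries were. They were Ppp1r9a, with 0.38, 0.84 and 1.17 FPKM in AF against 0.24, 0.38 and 0.26 in the MNA group, and Peg13, listed at 0 in all PF and AF libraries and at 2.21, 0 and 2.27 in AF with MNA (limma adjusted p = 0.940 for both). Peg13 reached the mean level for the test through those MNA libraries alone and has no finite ratio to AF, so the fold condition was met by construction.

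Of the partners named for Meg3, 7 of the 8 genes of PRC2 subunits were tested, and 0 were past the threshold in either comparison, with median log2 ratios of -0.12 in AF against PF and -0.03 in AF with MNA against AF. Rbbp4, at 6.63 to 7.31 FPKM in PF and 5.42 to 6.20 in AF, and Eed, at 2.86 to 3.22 and 1.97 to 2.62, were below PF in every AF library (limma adjusted p = 0.478 and 0.466). For p53 and its targets 7 of 8 genes were tested and 1 was past it in AF against PF. With 4.3% and 1.98% of all tested entries past it in the comparisons, nothing is read from these counts. The 1 was Gdf15, a stress-induced cytokine, at 0.76, 0.57 and 0.72 FPKM in PF, 1.39, 7.18 and 2.12 in AF, with 0.60, 1.69 and 1.56 in the MNA group (log2 ratio AF to PF 2.38, limma adjusted p = 0.367). Cdkn1a, the cell-cycle inhibitor p21, was at 0.79, 0.63 and 0.17 FPKM in PF, at 4.74, 32.8 and 0.27 in AF, with 4.96, 1.23 and 8.39 in the MNA group. Apart from AF replicate 3, which lay within the PF range, every alcohol-fed library was above PF. Sesn2, a stress-induced gene, was at 2.07 to 2.5 FPKM in PF, 3.87 to 4.44 in AF and 2.97 to 3.71 in the MNA group, below the log2 ratio that the threshold asks (0.85, limma adjusted p = 0.114). Ccng1, a p53-induced cyclin gene, went the other way, at 7.77 to 8.69 FPKM in PF, 6.02 to 6.80 in AF and 5.69 to 6.58 in the MNA group, below PF in all 6 alcohol-fed libraries (log2 ratio -0.36, limma adjusted p = 0.381). Mdm2 and Zmat3 had log2 ratios of 0.36 and -0.38, and their groups overlapped. Trp53 itself was between 1.81 and 3.27 FPKM.

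By Pearson correlation of log2(FPKM + 1) over the 9 libraries, among 12251 named entries averaging 0.5 FPKM or more, the entry most like Meg3 was Rian (r = 0.996), and the entry most like Rian was Meg3. Next to Meg3 came Srsf5, a splicing factor (r = 0.963), Grina (0.957), Tmem82 (0.953) and Cyp4a14, a fatty acid hydroxylase (0.948). Next to Rian came Srsf5 (0.973), Grina (0.957), Cyp4a14 (0.952) and Mfsd7c (0.946). All of these were lower in every PF library than in the 6 others, a step that the correlations share along with the libraries. Srsf5 was between 10.1 and 11.8 FPKM in PF and between 13.97 and 18.5 in the alcohol-fed libraries, and Cyp4a14 between 28.9 and 62.6 against 97.4 to 324.

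In whole liver, more cells of a type that makes these RNAs and more RNA per cell cannot be told apart. The liver label held in the markers, since hepatocyte markers summed to between 15997 and 23458 FPKM in all libraries the skeletal muscle markers with an entry to between 0.01 and 0.32 and the adipocyte markers to between 0 and 0.19. Acta1, Ckm and Adipoq were listed at 0 in PF and AF, while Mylpf gave nearly all of the muscle sum and Cfd the highest fat sum, at levels like those of Mirg and Rtl1. Pecam1, Cdh5, Stab2, Kdr and Clec4g, markers of endothelial cells, summed to 21.7 to 27.8 FPKM in PF, 27.2 to 38.4 in AF and 32.5 to 37.0 in the MNA group, so that the MNA libraries lay above PF and the AF libraries overlapped it. None of the 5 was past the threshold (0 in either comparison), and all 5 had a higher mean in AF than in PF, with log2 ratios from 0.26 to 0.59. Pecam1 was above PF in all 6 alcohol-fed libraries, as Meg3 and Rian were, at 2.17 to 2.82 FPKM in PF, 3.20 to 4.04 in AF and 3.42 to 3.86 in the MNA group (log2 ratio AF to PF 0.50, limma adjusted p = 0.372). Stellate cell markers summed to 33.7 to 36.9, 29.2 to 41.6 and 32.9 to 45.5 FPKM in the same order, macrophage markers to 32.4 to 37.9, 20.0 to 36.3 and 28.7 to 38.1, and bile duct markers to 3.27 to 4.31, 4.86 to 9.12 and 3.34 to 6.33. The stellate markers moved in no common direction, with 0 of 6 tested past the threshold. Of the 7 entries 2 were above PF in every AF library and 1, the second and untested Reln entry, was below it. Des was at 0.59 to 0.88 FPKM in PF, 1.26 to 1.77 in AF and 0.71 to 1.21 in the MNA group (log2 ratio AF to PF 0.93, limma adjusted p = 0.288), and Col1a1 at 0.39 to 0.69, 0.80 to 1.32 and 0.46 to 0.91 (log2 ratio 0.87, limma adjusted p = 0.414). The log2 ratio of AF to PF was -0.56 for the main Reln entry (limma adjusted p = 0.423), -0.26 for Rgs5, 0.10 for Dcn and 0.19 for Lrat. The bile duct sum was above PF in every AF library, with 0 of 2 tested markers past the threshold and Krt19 and Krt7 under 1 FPKM in all libraries. Hepatoblast markers, of cells known to express this domain, summed to 0.45 to 0.77 in PF, 0.24 to 0.37 in AF and 0.45 to 0.50 in AF with MNA, so that the sum was below PF in every AF library. Afp was at 0.29 to 0.54 FPKM in PF, 0.18 to 0.24 in AF and 0.25 to 0.38 in the MNA group, and Gpc3 reached 0.48 in PF replicate 2, levels in the range of Mirg or above it. H19, also on this marker list, went the other way at lower levels, with means of 0.02 in PF, 0.05 in AF and 0.03 in AF with MNA, and its groups overlapped. Of the red cell markers, Alas2, which starts haem synthesis in red cell precursors, was past the threshold downward, at 37.2, 43.3 and 41.4 FPKM in PF, at 6.66, 18.2 and 8.71 in AF and at 7.54, 24.7 and 22.0 in the MNA group (log2 ratio AF to PF -1.86, limma adjusted p = 0.108), and Hbb-bs was between 155.6 and 391 FPKM. The acinar marker Cela1 was between 2.25 and 7.18 FPKM while Cpa1 was listed at 0 in 8 libraries. The part of these cell types in the level of Meg3, Rian and Mirg was not tested.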

How the data were processed

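Liver RNA of 9 mouse libraries (3 each of PF, AF and AF with MNA) was depleted of ribosomal RNA, made into strand-specific libraries and sequenced from both ends. Gene and lncRNA levels, in FPKM, were made by the authors with StringTie 1.3.4 (HISAT2 is also named in the submitters' processing notes) and deposited 1 column per library. The genome build is not given in the sources used here, and 7708 of 7841 known lncRNA transcripts found in GENCODE M21 (GRCm38) had the same coordinates, so that annotation was used. The coverage signal in the deposited lncRNA table is the mean read depth per base, from which kilobases of aligned sequence were computed. The circRNA count and its signal scaled to the library were deposited by the authors, and counts are back-splice junction reads.

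Of the 52151 gene entries, the 26345 that carry a gene name and include a known transcript were used, along with the second Rtl1 entry, which includes none. Values were tested as log2(FPKM + 1) with limma 3.58.1 (lmFit, eBayes with an intensity trend; R 4.3.3) across all entries with a mean of at least 0.5 FPKM (genes) or 0.1 FPKM (lncRNA transcripts) over the 6 libraries compared, two-sided, with Benjamini-Hochberg adjustment. Fold changes are log2 ratios of group mean FPKM. Entries were called, as in the study's methods, at an unadjusted p under 0.05 and a log2 ratio beyond 1. An adjusted p under 0.05 was reached by 40 gene entries in AF against PF and 6 in AF with MNA against AF, and by 3 and 0 lncRNA transcripts, none of them members. With 3 libraries against 3 an exact permutation test cannot go below p = 0.1, so it was not used. The files give no read counts for genes and lncRNAs, so that the replicate spread is the measure of error.

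The members and the gene lists were chosen with earlier results of these data known. Named were all entries and a part of the transcripts of the 5 genes, and some of the other features of the domain reaching 1 FPKM. Also named were genes of the flanking, imprinted, PRC2 and p53 lists past the threshold, H19, Igf2, Igf2r, Peg3 and Grb10, and the 5 entries most like Meg3 and Rian. The other p53 and PRC2 genes, the other imprinted and flanking genes and the marker genes were named after their values were seen. Alternatives were a pseudocount of 0.1, no filter, libraries scaled to 1 median of values above 0, all 9 libraries in the fit, the replicate block, a model without moderation with a library-size covariate, and each library left out in turn.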

Additional observations from a re-analysis of the deposited data

Results flagged for a closer look

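The circRNA table, which none of the comparisons used, held 2 circRNAs inside Mirg. They had 3 back-splice junction reads over the AF libraries and 1 over the MNA libraries, against 0 in PF. They are given because a signal stood above the level of the control libraries. The PF libraries held 5714 junction reads in all, and a count of 0 there allows up to 3 reads, so the difference was not detectable at this depth. No other value of the locus was singled out, since the groups of 3 libraries are too small for a test of outlying samples.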

How the results depend on the processing

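The members were chosen on the AF to PF ratio, so its ranges are a description. Leaving out each library in turn, the only alternative run for Mirg and Rtl1 (known entry), the log2 ratio of means ranged from 3.75 to 4.54 for Meg3, 2.75 to 3.56 for Rian, 2.31 to 2.85 for Mirg, 1.91 to 2.70 for Rtl1, 3.05 to 3.65 for ENSMUST00000143836 and 3.19 to 4.78 for ENSMUST00000182981. In AF with MNA against AF the log2 ratio of means ranged from -0.31 to 0.48 for Meg3, from -0.32 to 0.34 for Rian, from 0.23 to 0.63 for ENSMUST00000143836 and from -0.91 to 0.22 for ENSMUST00000182981 over the same omissions. With libraries scaled to 1 median it was 0.81 for ENSMUST00000143836, against 0.38 unscaled, and none of these 4 was past the threshold in any alternative. With each library left out in turn, counts past the threshold ranged from 516 to 764 gene entries and 349 to 562 lncRNA transcripts in AF against PF. In AF with MNA against AF they ranged from 211 to 367 and 261 to 423, where the main count of gene entries, 242, was 367 without AF replicate 3. The upregulated share of lncRNA transcripts past the threshold in AF against PF ranged from 40.9% without PF replicate 1 to 77.2% without AF replicate 2. With no filter the gene counts were 1183 and 676, since more entries were tested. With all 9 libraries in the fit the lncRNA counts were 744 and 624, and with a pseudocount of 0.1 they were 662 and 598. In the model without moderation and with a library-size covariate the gene counts were 364 and 94 and the lncRNA counts 630 and 379. In that model 0 gene entries reached an adjusted p under 0.05 in either comparison. The main fits had 40 and 6 such entries, and those with all 9 libraries 86 and 0. The cause of these shifts was not tested. With the replicate block the counts were 562 and 260 gene entries and 438 and 316 lncRNA transcripts. Among members the block added ENSMUST00000129245 of Meg3 to the transcripts past the threshold in AF against PF, and MSTRG.10718.2 to those in AF with MNA against AF (adjusted p = 0.639, limma). Nothing is read from the call of ENSMUST00000129245, since that contrast chose the members and its AF and PF libraries overlapped. The replicate numbers were not taken to pair the libraries, since same-numbered libraries correlated between -0.0435 and 0.0615 in their deviations from the group means and did not all correlate best with their own number. Low FPKM limits all values of the PF libraries.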
